A study of Mus musculus with 6 samples.

Results

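The genes described here are 9 factors and targets of YAP and TAZ, the transcriptional co-activators through which cells read stiffness, stretch and crowding. They were picked by gene name for their known roles, with earlier results of these data known: the co-activators Yap1 and Wwtr1 (the gene of TAZ), their DNA-binding partner Tead1, the pathway genes Lats2 and Amotl2, and the targets Ctgf, Cyr61, Ankrd1 and Axl. All 9 were found among the 34745 genes of the expression table, and all 9 were among the 10279 genes with enough expression to be tested. None of the 9 passed the test in any comparison of stages. Their levels differed far more from gene to gene than from stage to stage, and Amotl2, Axl and Wwtr1 had the lowest p-values.

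RNA was sequenced from lung mesenchymal stromal cells (LMSCs), plastic-adherent fibroblast-like cells grown from lung digests after removal of CD45+ blood cells. All donors were MMTV-PyMT mice, in which the mouse mammary tumor virus promoter drives the polyoma middle T oncogene in mammary epithelium, so that tumors arise in the gland and spread to the lung. The A-LMSCs came from mice at the adenoma stage (6 to 7 weeks by the sample labels), the PM-LMSCs from the pre-metastatic stage (9 to 10 weeks) and the M-LMSCs from the metastatic stage (13 to 14 weeks), with 2 libraries each and every culture at passage 3. The paper gives somewhat older mice for the adenoma and pre-metastatic stages than the labels do. No library of tumor-free mice was analysed here, age and stage cannot be told apart, and all values are those of cells expanded in dish culture. The paper describes the libraries of a stage as coming from different mice, while the labels do not tie a library to an animal, and the p-values measure the spread between these libraries.

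In the Hippo pathway, the kinases MST1 and MST2 activate LATS1 and LATS2, which phosphorylate YAP and TAZ and keep them out of the nucleus. Angiomotin family proteins such as AMOTL2 bind YAP and TAZ in the cytoplasm. On stiff substrates, with stress fibers under tension, YAP and TAZ enter the nucleus and join TEAD proteins on DNA, where they switch on genes such as Ctgf and Cyr61. Several targets, among them Lats2 and Amotl2, are themselves inhibitors and close a feedback loop. In lung fibroblasts YAP and TAZ are known for their part in matrix production and fibrosis. Their activity is set largely by protein location, which RNA levels do not measure.

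Levels are given as FPKM, fragments per kilobase of gene scaled to the library's total, so that genes can be compared per unit length. The 4 targets outside the pathway itself lay far above the rest. Cyr61 was highest, followed by Ctgf, Axl and Ankrd1, and this order of FPKM was the same in all 6 libraries. Among the 10279 genes tested, Cyr61 stood at the 99.4 to 99.6 percentile of FPKM, Ctgf at 99.2 to 99.5, Axl at 97.9 to 98.6 and Ankrd1 at 96.6 to 98.3. Amotl2 followed at 81.9 to 86.9. Yap1, Wwtr1 and Lats2 lay between the 67.2 and 84.9 percentile and exchanged places from library to library. Tead1 was lowest of the 9 in all 6 libraries, at 54.9 to 67.9. From the estimated depths and the annotated exon length, the least covered value among the 9 rested on about 1296 fragments (Wwtr1) and the best covered on about 28471 (Axl), on exon lengths that may differ from those the authors used.

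**Figure D1:**
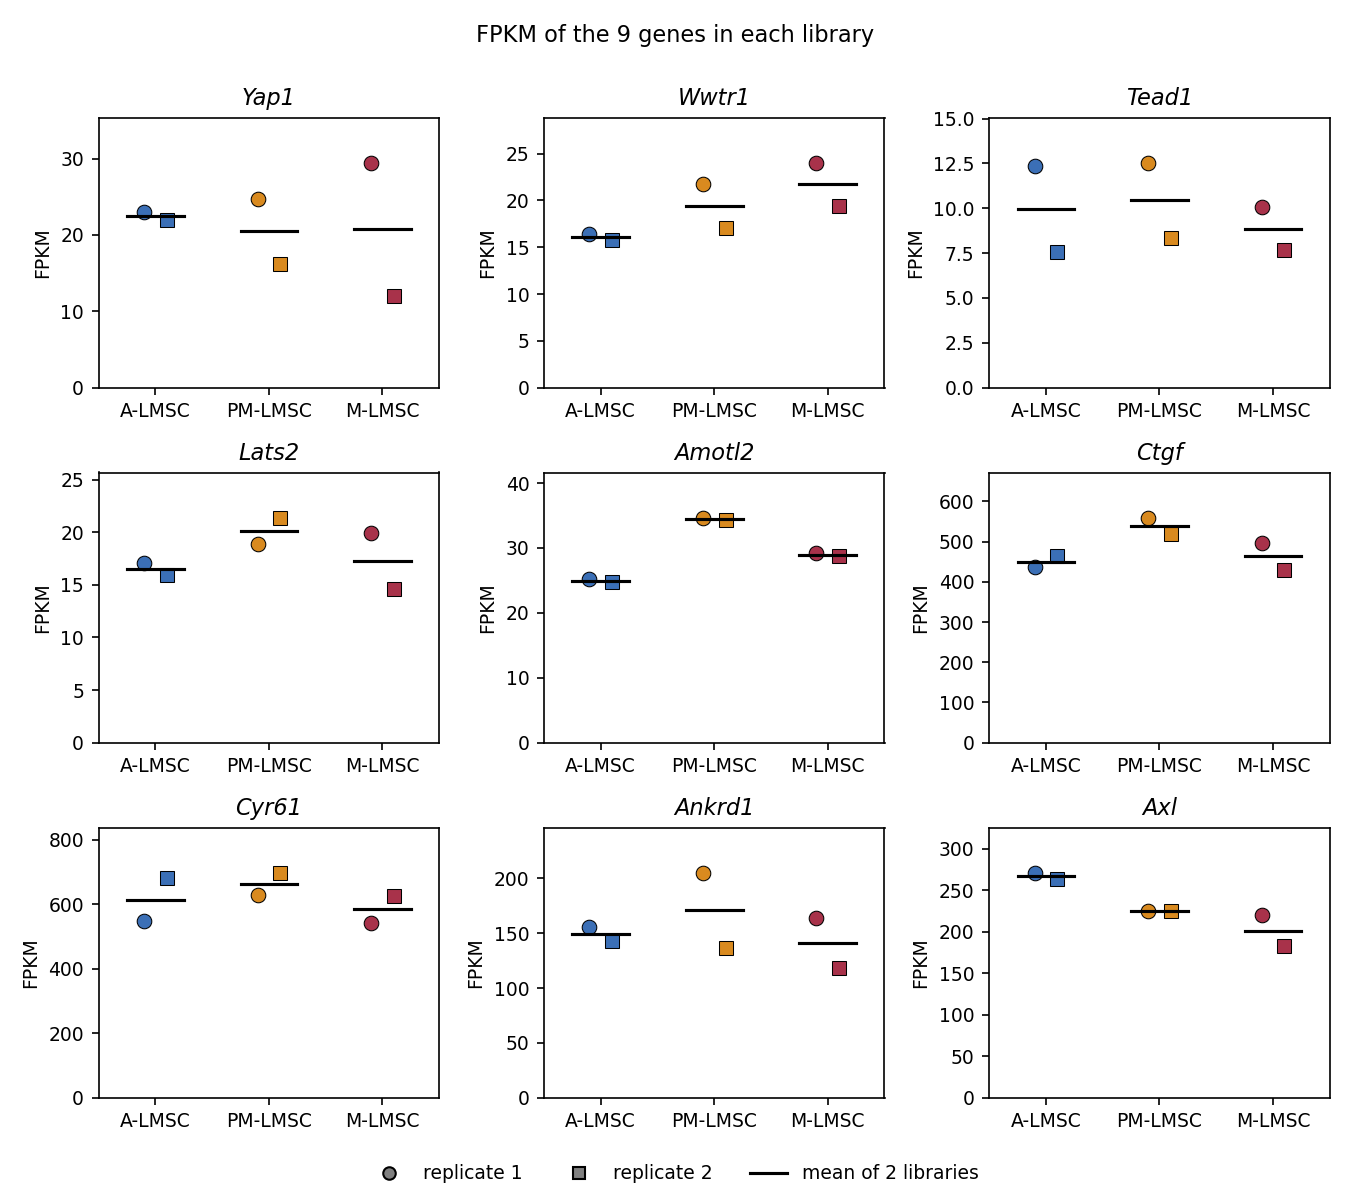
FPKM (vertical axes, linear from 0) of the 9 genes in each of the 6 libraries, by stage; circles are replicate 1, squares replicate 2 and bars the mean of the 2 libraries. Amotl2 has libraries close to each other within every stage, and Axl within A-LMSC and PM-LMSC. Both genes are apart between A-LMSC and PM-LMSC. The M-LMSC libraries lie at 219.6 and 183 FPKM for Axl and at 29.5 and 12.0 FPKM for Yap1.

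The sequences before the transcription starts are shown for 4 genes: Amotl2, Axl and Wwtr1, on which the comparisons below turn, and Cyr61, the most abundant of the 9. Each window holds 250 bases before and 50 bases after a transcription start, 5′ to 3′ on the strand of the gene, taken from RefSeq on GRCm38.p6. Capitals mark the core letters of the TEAD binding motif, GGAATG or its reverse complement CATTCC. The windows are chr9:102717554-102717853 on the plus strand for Amotl2, chr7:25788684-25788983 on the minus strand for Axl, chr3:57575861-57576160 on the minus strand for Wwtr1 and chr3:145649936-145650235 on the minus strand for Cyr61.
Amotl2: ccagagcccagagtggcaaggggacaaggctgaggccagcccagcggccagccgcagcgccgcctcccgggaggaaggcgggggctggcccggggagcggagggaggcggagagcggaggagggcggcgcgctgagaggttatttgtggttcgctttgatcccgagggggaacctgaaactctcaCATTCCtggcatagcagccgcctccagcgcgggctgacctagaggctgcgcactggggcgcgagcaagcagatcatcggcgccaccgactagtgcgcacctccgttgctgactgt
Axl: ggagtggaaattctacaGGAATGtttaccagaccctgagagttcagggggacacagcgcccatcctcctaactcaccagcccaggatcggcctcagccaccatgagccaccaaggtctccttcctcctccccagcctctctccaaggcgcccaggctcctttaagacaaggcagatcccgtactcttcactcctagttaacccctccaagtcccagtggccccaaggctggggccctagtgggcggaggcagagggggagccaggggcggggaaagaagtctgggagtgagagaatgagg
Wwtr1: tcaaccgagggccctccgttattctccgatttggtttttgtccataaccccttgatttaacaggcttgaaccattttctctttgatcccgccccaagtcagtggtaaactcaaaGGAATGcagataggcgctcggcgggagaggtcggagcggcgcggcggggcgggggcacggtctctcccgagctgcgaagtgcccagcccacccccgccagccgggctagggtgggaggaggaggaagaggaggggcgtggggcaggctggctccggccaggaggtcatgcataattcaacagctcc
Cyr61: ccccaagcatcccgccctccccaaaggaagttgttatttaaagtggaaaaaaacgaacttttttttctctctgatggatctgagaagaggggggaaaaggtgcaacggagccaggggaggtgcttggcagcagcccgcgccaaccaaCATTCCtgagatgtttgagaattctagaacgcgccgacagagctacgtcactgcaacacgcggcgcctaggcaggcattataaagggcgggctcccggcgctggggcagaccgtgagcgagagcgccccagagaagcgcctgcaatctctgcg
The match lay 65 bases before the start in Amotl2, 233 in Axl, 136 in Wwtr1 and 103 in Cyr61. Wwtr1 had another window, not shown, in which the same match lay 170 bases before the start. For Axl and Cyr61, the bases just after the RefSeq start were not found in full in a GENCODE M21 transcript, so these 2 distances depend on the annotation. Ankrd1 held 2 matches, 210 and 123 bases before its start, and Yap1 held 1 before its start. Lats2 had 2 windows, of which 1 held a match that began 5 bases after the start. Windows were on file for 7 of the 9 genes, with 9 windows in all, and Ctgf and Tead1 were not matched. All 7 genes and 8 of the 9 windows held a TEAD match, against 14.7% of all 32851 promoter windows of the same length. No window of the 7 genes held the AP-1 motif TGANTCA (7.81% of all windows) or the CArG box bound by SRF (1.63%). Both strands were searched, and no TEAD match overlapped another of these motifs. These matches describe letters in a window and not binding. The genes were chosen for known roles as factors or targets of YAP and TAZ, so the high share was given no test. Both Wwtr1 windows hold the same match, which the window count includes each time.

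The co-activators were compared first. Yap1 measured 23.0 and 22.0 FPKM in the A-LMSC libraries, 24.7 and 16.2 in PM-LMSC, and 29.5 and 12.0 in M-LMSC. The lowest and the highest of the 6 values were thus both M-LMSC libraries, 2.47-fold apart, and the ranges of all 3 stages overlapped. The means were 22.5 ± 0.732 (SD, n = 2), 20.5 ± 6.03 and 20.7 ± 12.4 FPKM. On the log2(FPKM + 1) scale, M-LMSC differed from A-LMSC by -0.24, with a 95% interval from -1.17 to 0.69 (limma, adjusted p = 0.777). Changes in Yap1 RNA of 1.5-fold in either direction lie within this interval. With the replicate number as a block, the limma interval ran from -0.82 to 0.33, which leaves out a 1.5-fold rise. The spread of Yap1 over the 6 libraries was larger than that of 96.4% of the genes tested. Between the libraries numbered 1 the difference of M-LMSC and A-LMSC was 0.34, and between those numbered 2 it was -0.83. In M-LMSC the summed FPKM of 12 mesothelial markers was 218 in the library with more Yap1 and 533 in the library with less, and the part of this difference in the Yap1 values was not tested. In bulk RNA, fewer cells of a type and less RNA per cell cannot be told apart.

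Wwtr1, which codes for TAZ, measured 16.4 and 15.8 FPKM in A-LMSC, 21.8 and 17.1 in PM-LMSC, and 24.1 and 19.4 in M-LMSC. All 4 later libraries were above both A-LMSC libraries, and PM-LMSC and M-LMSC overlapped. The means were 16.1 ± 0.466, 19.4 ± 3.35 and 21.7 ± 3.29 FPKM (SD, n = 2). The difference of M-LMSC and A-LMSC was 0.40 (SE 0.159) in log2(FPKM + 1), with a 95% interval from 0.02 to 0.78. Its unadjusted p of 0.041 did not hold after adjustment over all genes tested (limma, adjusted p = 0.320). PM-LMSC was 0.25 above A-LMSC (adjusted p = 0.859, limma), with an interval from -0.13 to 0.63.

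Set against each other, the FPKM ratio of Wwtr1 to Yap1 was 0.713 and 0.717 in A-LMSC, 0.882 and 1.05 in PM-LMSC, and 0.815 and 1.62 in M-LMSC. All 4 later libraries had a higher ratio than both A-LMSC libraries, and Wwtr1 exceeded Yap1 in replicate 2 of PM-LMSC and of M-LMSC. Yap1 accounted for 58.4% and 58.2% of the summed FPKM of the pair in A-LMSC, for 53.2% and 48.7% at the pre-metastatic stage, and for 55.1% and 38.1% at the metastatic stage. With 2 libraries a stage, an exact permutation test of such a ratio cannot pass the threshold, and none is given.

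Tead1, the lowest of the 9, measured 12.3 and 7.54 FPKM in A-LMSC, 12.5 and 8.35 in PM-LMSC, and 10.05 and 7.65 in M-LMSC. At each stage replicate 1 was higher, and the 3 stages overlapped. Its log2 differences were 0.08 for PM-LMSC against A-LMSC, -0.13 for M-LMSC against A-LMSC and -0.20 for M-LMSC against PM-LMSC, with adjusted p-values from 0.834 to 0.977 in limma.

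TEAD proteins are a family of 4, and Tead1 gave between 25.0% and 39.0% of their summed FPKM. Tead3 gave the largest share, 34.4% to 47.4%, and Tead4 the smallest, 6.19% to 8.17%. The sum of the 4 genes stayed between 29.1 and 36.1 FPKM. Tead2, the family member most tied to embryonic tissues, measured 5.89 and 5.93 FPKM in A-LMSC, 4.82 and 5.41 in PM-LMSC, and 10.3 and 8.59 in M-LMSC. Its share of the family was 16.3% and 19.6%, 15.0% and 18.3%, and then 29.7% and 29.6%, so that both M-LMSC libraries stood apart from the other 4. The log2 difference of M-LMSC and PM-LMSC was 0.77 (SE 0.13) for Tead2 (adjusted p = 0.192 by limma), and that of M-LMSC and A-LMSC was 0.59 (adjusted p = 0.130). Tead3 was lower in both M-LMSC libraries (11.9 and 11.03 FPKM) than in both A-LMSC libraries (15.3 and 14.3 FPKM), by -0.34 on the log2 scale (adjusted p = 0.242, limma).

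**Figure D2:**
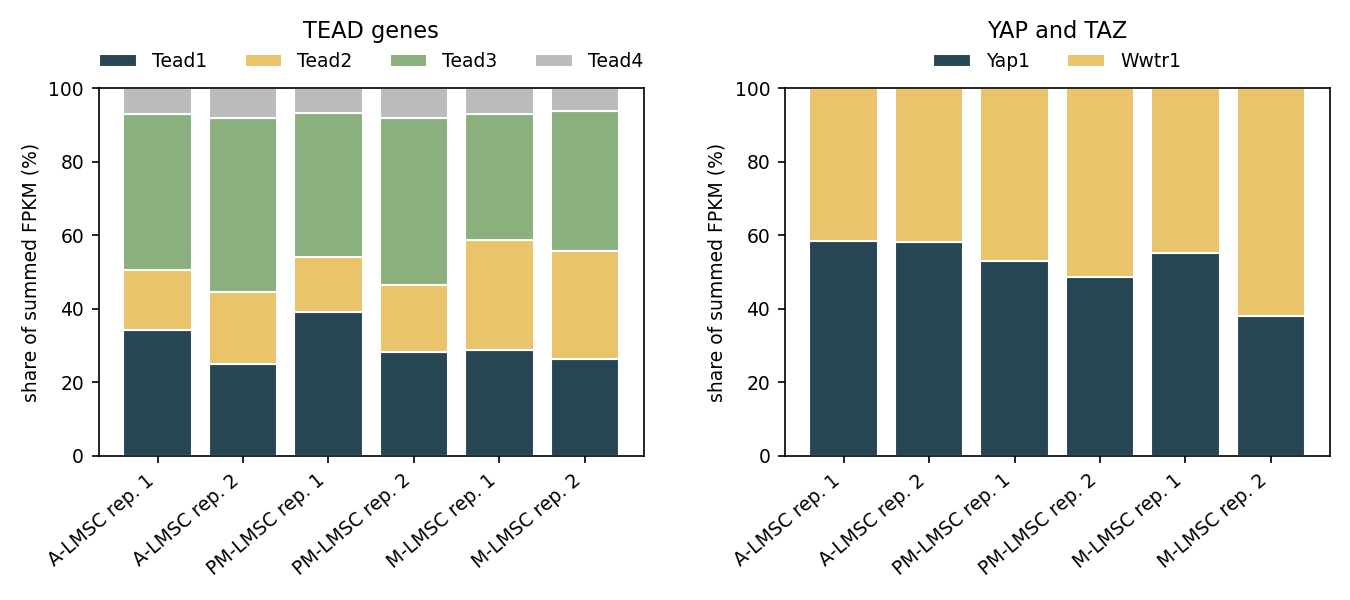
Share of the summed FPKM (vertical axes, %) taken by each TEAD gene (left) and by Yap1 and Wwtr1 (right) in each of the 6 libraries. Tead2 takes 29.7% and 29.6% in the M-LMSC libraries and at most 19.6% in the other 4, and Yap1 takes from 58.4% in A-LMSC replicate 1 down to 38.1% in M-LMSC replicate 2.

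Lats2, the kinase that phosphorylates YAP and TAZ, measured 17.1 and 15.9 FPKM in A-LMSC, 18.9 and 21.4 in PM-LMSC, and 19.9 and 14.6 in M-LMSC. Both PM-LMSC libraries were above both A-LMSC libraries, by 0.27 on the log2 scale (95% interval from -0.12 to 0.66, limma adjusted p = 0.849), and M-LMSC overlapped both other stages. Its paralog Lats1 had 4.53 to 8.16 FPKM, and Lats2 made up 71.0% to 81.3% of the FPKM of the pair. In the GENCODE M21 annotation of GRCm38, a transcript named Gm49361 lies on the same strand as Lats2 and shares 2955 exonic bases with it. The expression table lists no gene named Gm49361, and the annotation used for its counting is not given.

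Amotl2, a YAP-binding angiomotin and itself a target, gave the lowest p-value of the 9 at the pre-metastatic stage. It measured 25.2 and 24.7 FPKM in A-LMSC, 34.7 and 34.3 in PM-LMSC, and 29.2 and 28.8 in M-LMSC. The 3 stages did not overlap, and the libraries of a stage lay within 1 FPKM of each other. The means were 25.0 ± 0.329, 34.5 ± 0.263 and 29.0 ± 0.305 FPKM (SD, n = 2), a ratio of 1.38 between PM-LMSC and A-LMSC. The log2 difference was 0.45 (SE 0.097), with a 95% interval from 0.22 to 0.68 and an unadjusted p of 0.003 in limma. After adjustment it did not pass (adjusted p = 0.359, limma). M-LMSC lay 0.24 below PM-LMSC on this scale, an estimate of -0.24 with an interval from -0.48 to -0.01 (limma, adjusted p = 0.549). The differences were nearly the same within each replicate number, 0.45 and 0.46 for PM-LMSC against A-LMSC. The related Amotl1 had 24.3 to 27.6 FPKM and Amot 7.56 to 16.1 FPKM, and for both genes all stages overlapped. The Amot means had the same order of stages as Amotl2, at 9.93 FPKM in A-LMSC, 12.5 in PM-LMSC and 11.6 in M-LMSC. Those of Amotl1 did not, at 26.1, 25.8 and 26.7 FPKM. The TEAD match shown in capitals above lies 65 bases before the Amotl2 start.

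The targets Ctgf and Cyr61 code for secreted matricellular proteins and are the most used readouts of YAP activity. Ctgf measured 437 and 464 FPKM in A-LMSC, 559.8 and 519 in PM-LMSC, and 496 and 430.4 in M-LMSC. Both PM-LMSC libraries were above all 4 others, and A-LMSC and M-LMSC overlapped. The log2 difference of PM-LMSC and A-LMSC was 0.26 (95% interval from -0.04 to 0.56, limma adjusted p = 0.812), that of M-LMSC and A-LMSC 0.04 (from -0.27 to 0.34), and that of M-LMSC and PM-LMSC -0.22 (from -0.53 to 0.08). Cyr61 measured 548 and 679.6 FPKM in A-LMSC, 629 and 698 in PM-LMSC, and 542 and 626 in M-LMSC. Here replicate 2 was higher at every stage, A-LMSC overlapped both later stages, and the 3 differences were 0.12, -0.07 and -0.19 (95% intervals from -0.25 to 0.49, from -0.44 to 0.30 and from -0.56 to 0.19). The sign of the small M-LMSC against A-LMSC difference turned with median centring for Ctgf and Lats2 and with quantile normalization for Cyr61. For neither gene do the limma intervals reach a 1.5-fold change between A-LMSC and M-LMSC in either direction.

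Ctgf and Cyr61 together dominated their family. Of the summed FPKM of the 6 CCN genes, Ctgf made up 32.9% to 39.3% and Cyr61 42.4% to 48.3%. Nov, another secreted CCN protein, was low but measured 5.72 and 4.52 FPKM in A-LMSC, 4.32 and 4.41 in PM-LMSC, and 8.15 and 11.4 in M-LMSC. Its log2 difference of M-LMSC and A-LMSC was 0.80 (limma, adjusted p = 0.131). In the annotation, Gm15270 overlaps Ctgf by 665 exonic bases on the opposite strand. The sources used here do not say whether the counting used strand.

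Ankrd1, a nuclear ankyrin repeat protein of stretched muscle and myofibroblasts, measured 156 and 143 FPKM in A-LMSC, 205 and 136 in PM-LMSC, and 164 and 118 in M-LMSC. The highest and the lowest library differed 1.74-fold, all stages overlapped, and the log2 differences were 0.17, -0.10 and -0.27 (limma, adjusted p-values from 0.761 to 0.920).

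Axl, a receptor tyrosine kinase for the ligand GAS6, went the other way from Wwtr1. It measured 271 and 263 FPKM in A-LMSC, 225 and 225 in PM-LMSC, and 219.6 and 183 in M-LMSC. No stage overlapped another, with A-LMSC highest and M-LMSC lowest, although replicate 1 of M-LMSC came close to PM-LMSC. The means were 267 ± 5.63, 225 ± 0.167 and 201 ± 25.8 FPKM (SD, n = 2). M-LMSC was lower than A-LMSC by a log2 difference of -0.41 (SE 0.125), with a 95% interval from -0.71 to -0.11, an unadjusted p of 0.014 and an adjusted p of 0.224 in limma. PM-LMSC against A-LMSC gave -0.25 (adjusted p = 0.824) and M-LMSC against PM-LMSC -0.17 (adjusted p = 0.732). Among the TAM receptors, Axl made up 97.9% to 98.2% of the summed FPKM, with Tyro3 and Mertk making up the rest.

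**Figure D3:**
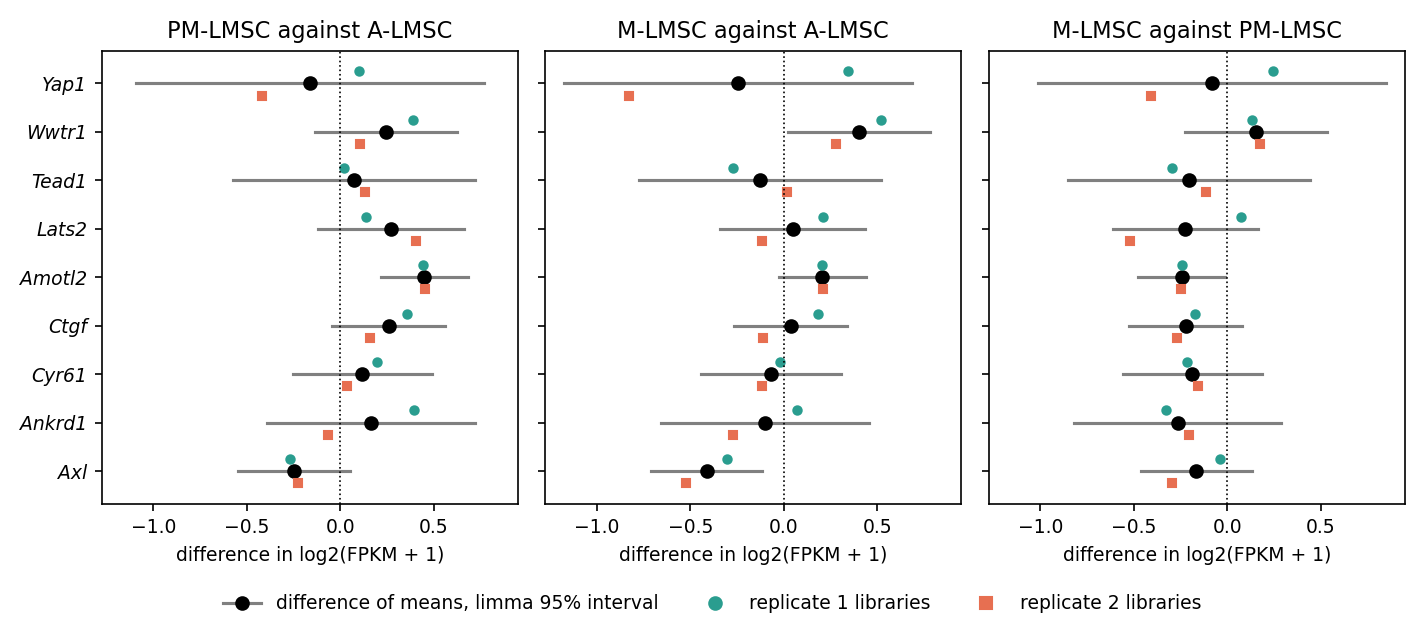
Difference in log2(FPKM + 1) (horizontal axes) of the 9 genes in the 3 comparisons of stages; black points are the differences of stage means with limma 95% intervals, green circles the difference between the libraries numbered 1 and orange squares that between the libraries numbered 2. The intervals of Amotl2 (0.22 to 0.68) in the left panel, of Wwtr1 and Axl in the middle panel and of Amotl2 in the right panel leave out 0 before adjustment for the genes tested, and the Yap1 interval is the widest.

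Read over the 9 genes, 0 passed an adjusted p of 0.05 in limma in PM-LMSC against A-LMSC, where 0.0389% of all genes tested passed. In M-LMSC against A-LMSC 0 passed (0.0681% of all genes), and in M-LMSC against PM-LMSC 0 passed (0.0292%). At an unadjusted p under 0.05 the counts were 1 of 9 (Amotl2; 6.53% of all genes), 2 of 9 (Wwtr1 and Axl; 14.6%) and 1 of 9 (Amotl2; 8.94%). With the replicate number as a block, limma also called 0 of the 9 in each comparison, where it called 0.292%, 3.92% and 0.418% of all genes. The counts at an unadjusted p under 0.05 were then again 1, 2 and 1 of the 9, against 13.8%, 24.3% and 16% of all genes. In this limma fit the lowest adjusted p-values among the 9 were 0.118 (Amotl2), 0.0884 (Axl) and 0.287 (Amotl2). Wwtr1 had an adjusted p of 0.0957 in M-LMSC against A-LMSC in the same fit.

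In PM-LMSC against A-LMSC, both libraries were higher in 4 of the 9 genes (Ctgf, Amotl2, Lats2 and Wwtr1), as in 19.6% of all genes tested, and both were lower in 1 (Axl), as in 19.7%. In M-LMSC against A-LMSC, both were higher in 2 (Amotl2 and Wwtr1; 27.1% of all genes) and lower in 1 (Axl; 24.4%). In M-LMSC against PM-LMSC, both were higher in 0 (17.8%) and lower in 4 (Ctgf, Cyr61, Amotl2 and Axl; 16.7%). The last count depended on the scaling: with each library centred on its median it was 3, without Cyr61, and with quantile normalization only Amotl2 remained. The median log2 difference of the 9 genes was 0.17, -0.07 and -0.20 in the 3 comparisons, beside 0.01, 0.03 and -0.002 for all genes tested. Both PM-LMSC libraries were the highest of all 6 for 2 of the 9 genes (Ctgf and Amotl2), as for 4.26% of all genes tested, both A-LMSC libraries for 1 (Axl; 10.7%) and both M-LMSC libraries for 0 (11.8%). By stage means, 7 of 9 were higher in PM-LMSC than in A-LMSC and 8 of 9 lower in M-LMSC than in PM-LMSC, and both counts rest on the same PM-LMSC libraries.

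The replicate number set a pattern of its own. Replicate 1 was above replicate 2 at every stage for 6 of the 9 genes (Ankrd1, Amotl2, Axl, Yap1, Wwtr1 and Tead1), as for 26% of all genes tested, and below it at every stage for 1 (Cyr61; 21.2%). The size of this gap differed widely. Replicate 1 was at most 1.02-fold above replicate 2 for Amotl2 and 1.001-fold for Axl in PM-LMSC, but 2.47-fold for Yap1 in M-LMSC. Of 28 Hippo genes tested outside the 9, 14 had replicate 1 higher at every stage, among them the paralogs Lats1 and Amot. Of 11 mesothelial markers tested, 0 did, and 9 had replicate 2 higher at every stage. What the numbers stand for is not given in the labels.

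The other genes of the pathway were read from lists. A list of 30 Hippo kinases, adaptors and upstream regulators also held Tead2, Tead3, Tead4, Vgll3 and Vgll4. Of the 30, 28 were tested and 0 passed in any comparison in limma, with or without the replicate block. At an unadjusted p under 0.05, limma gave 1, 4 and 2 of the 28, beside 6.53%, 14.6% and 8.94% of all genes tested. Tead2 and Tead3, already described above, were among the 4, and Tead2 was among the 2. The median log2 difference of this list was 0.02, 0.10 and 0.01. Ptpn14, a phosphatase that holds YAP in the cytoplasm, measured 6.50 and 6.27 FPKM in A-LMSC, 10.5 and 9.16 in PM-LMSC, and 8.55 and 10.5 in M-LMSC. Its differences from A-LMSC were 0.55 and 0.50 (adjusted p = 0.449 and 0.189, limma), with all 4 later libraries higher. Ajuba, a LIM protein that binds LATS kinases, had a difference of -0.31 between M-LMSC and PM-LMSC (limma, adjusted p = 0.477). Mob1a, the LATS activator, was named only after its values were seen: it measured 13.1 and 11.3 FPKM in A-LMSC, 4.31 and 3.78 in PM-LMSC, and 18.1 and 3.01 in M-LMSC, so that the M-LMSC libraries lay on opposite sides of all others.

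A list of 16 other YAP and TAZ targets had median log2 differences of 0.11, 0.38 and 0.13, and in M-LMSC both libraries were above both A-LMSC libraries in 9 of 16, as in 27.1% of all genes tested. None passed in limma without the block. With the replicate block 1 gene, Igfbp3, passed in M-LMSC against A-LMSC (adjusted p = 0.0290). Igfbp3, a secreted carrier of insulin-like growth factors, measured 50.6 and 51.3 FPKM in A-LMSC, 58.9 and 67.2 in PM-LMSC, and 96.0 and 213 in M-LMSC, a difference of 1.47 between M-LMSC and A-LMSC (adjusted p = 0.134 without the block, limma). Gadd45a and Fjx1 had differences of 0.63 and 0.48 in the same comparison (adjusted p = 0.310 and 0.216, limma). At an unadjusted p under 0.05, 6 of the 16 were higher and 0 lower in M-LMSC against A-LMSC, where 7.68% of all genes were higher and 6.96% lower. Among the 9 genes, the 4 targets outside the pathway itself, Ctgf, Cyr61, Ankrd1 and Axl, had differences of 0.04, -0.07, -0.10 and -0.41 there. Amotl2 and Lats2, pathway genes that are also targets, had 0.21 and 0.05.

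YAP and the SRF coactivators MRTF-A and MRTF-B respond to the same stress fibers, so their cytoskeletal targets were read beside the 9 genes. Of 16 such genes 0 passed in limma, with or without the block, and their median log2 differences were -0.05, -0.14 and -0.03. In M-LMSC both libraries were below both A-LMSC libraries in 7 of 16 (24.4% of all genes tested) and above them in 4 (27.1%). Cnn1, the smooth muscle calponin, measured 405 and 408 FPKM in A-LMSC, 296 and 323 in PM-LMSC, and 286 and 296 in M-LMSC, with differences from A-LMSC of -0.39 and -0.48 (adjusted p = 0.508 and 0.138, limma). Vcl, the focal adhesion protein vinculin, had a difference of 0.42 between M-LMSC and A-LMSC (adjusted p = 0.247, limma). The genes of MRTF-A and MRTF-B, Mkl1 and Mkl2, had differences of -0.47 and 0.29 there (adjusted p = 0.271 and 0.298). Actg2, a smooth muscle actin, had -0.40 in PM-LMSC against A-LMSC (adjusted p = 0.689).

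AP-1 factors share many enhancers with TEAD proteins, and cell handling induces immediate early genes. Of 16 immediate early genes 0 passed in limma without the block, and the medians were -0.07, -0.10 and 0.04. With the block, Fosl1 (FRA-1), which was lower, and Btg2, which was higher, passed in M-LMSC against A-LMSC (adjusted p = 0.0219 and 0.0496). Fosl1 measured 32.9 and 31.1 FPKM in A-LMSC, 31.0 and 29.3 in PM-LMSC, and 19.9 and 19.5 in M-LMSC, a difference of -0.68 from A-LMSC (adjusted p = 0.0875 without the block, limma). Btg2, an antiproliferative gene, had a difference of 0.46 and Fos one of 0.50 (adjusted p = 0.228 and 0.238 without the block). Klf2 and Klf4 had -0.43 and -0.33 in PM-LMSC against A-LMSC (limma, adjusted p = 0.449 and 0.552). Dusp1, a MAP kinase phosphatase, had 0.46 in M-LMSC against PM-LMSC (adjusted p = 0.545).

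**Figure D4:**
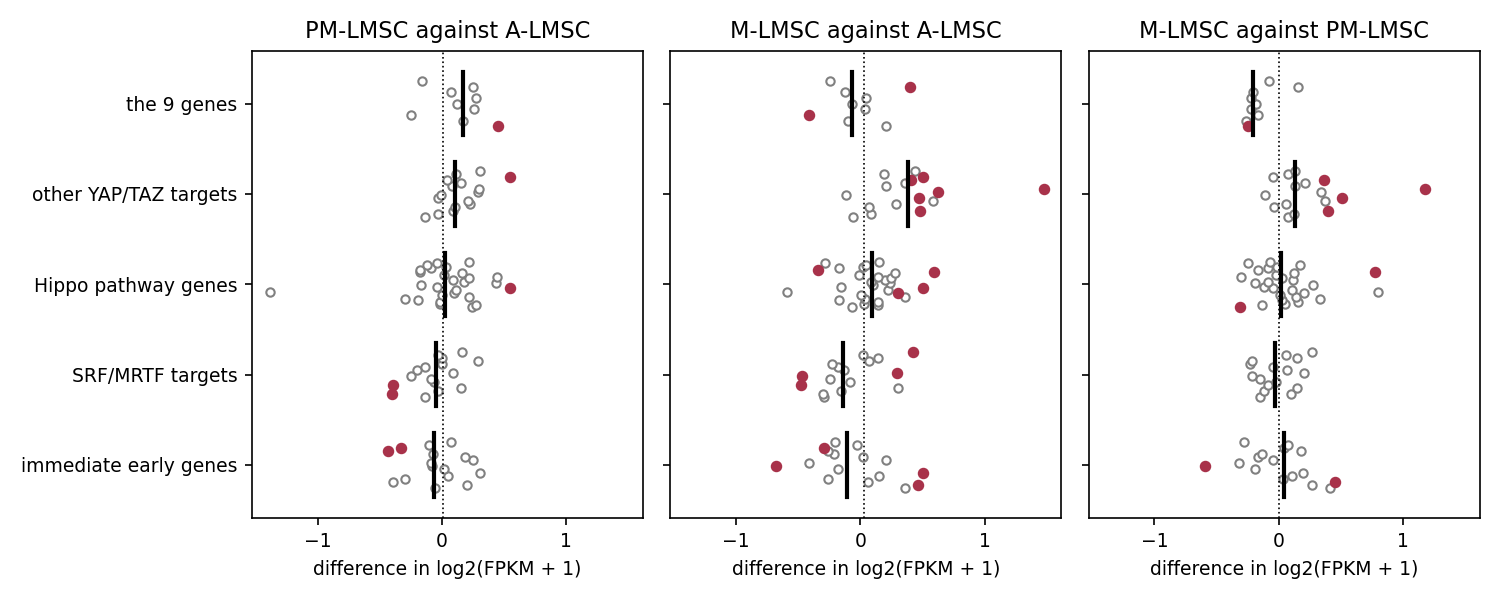
Difference in log2(FPKM + 1) (horizontal axes) of the genes of 5 lists (rows) in the 3 comparisons; each point is a gene, filled where its unadjusted limma p is under 0.05, thick bars are list medians and the dotted line is the median of all genes tested. In M-LMSC against A-LMSC the median of the 9 genes is -0.07 and that of the 16 other YAP/TAZ targets 0.38, with Igfbp3 farthest right at 1.47.

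Genes with the most similar course over the 6 libraries were found for 3 of the 9, by the root mean square difference of centred log2(FPKM + 1). For Ctgf they were Nt5c3, Exoc3 and Dusp12, at 0.035, 0.041 and 0.042, where the SD of Ctgf itself was 0.135. For Cyr61 they were Atp5c1, Fastk and Dnajc4, at 0.030, 0.035 and 0.039 (SD of Cyr61 0.139). For Yap1 they were Fat4, Dkk2 and Brinp1, at 0.127, 0.136 and 0.142 (SD of Yap1 0.407). Fat4, a large cadherin tied to Hippo signaling, measured 16.1 FPKM in the M-LMSC library with more Yap1 and 7.89 in the other. Among 10279 genes and only 6 libraries, such likeness can arise without any link between the genes.

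Markers of other cells moved with the stages. The 10 LMSC markers were all above the filter, with a summed FPKM of 1589 to 2435, and Ptprc, the gene of CD45, was at 0.0254 to 0.0987. At an unadjusted limma p under 0.05, the LMSC markers Thy1 and Eng were higher and Pdgfra and Pdgfrb lower in PM-LMSC than in A-LMSC. Pdgfra, Pdgfrb and Ly6a were higher in M-LMSC than in PM-LMSC at this p. After adjustment 0 of the 10 passed in any comparison, with or without the block. The 11 haematopoietic markers summed to 133 and 125 FPKM in A-LMSC, 168 and 74.8 in PM-LMSC, and 404 and 291 in M-LMSC, mostly Lyz2. Of the 6 that were tested, 5 passed in M-LMSC against A-LMSC with the replicate block and 0 without it. In M-LMSC against PM-LMSC 2 passed with the block, Tyrobp and Fcer1g, both higher, and 0 without it. The 12 mesothelial markers summed to 130 and 190, 318 and 446, and 218 and 533 FPKM. Of the 11 tested, 4 passed in PM-LMSC against A-LMSC with the block, all higher. In M-LMSC against A-LMSC 9 passed with the block, 8 of them higher and Krt19 lower, and without it only Krt19 passed. The 8 endothelial markers summed to at most 2.72 FPKM and the 11 epithelial markers to at most 4.42, the highest sum being in M-LMSC. Kdr, the only endothelial marker tested, was higher in M-LMSC than in A-LMSC and passed there with the block but not without it. Epcam, a defining marker of epithelium, had 0.326 and 0.473 FPKM in M-LMSC and was listed at 0 in the other 4 libraries. The part of these cells in the values of the 9 genes was not tested. Depth, estimated from the table, was roughly between 14779000 and 20848000 fragments a library.

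In the annotation (GENCODE M21, GRCm38) all 9 are protein-coding genes. Ctgf lies at chr10:24595442-24598683 on the plus strand, Cyr61 at chr3:145646976-145649981 and Wwtr1 at chr3:57455649-57575910, both on the minus strand, and Ankrd1 at chr19:36111961-36120099 on the minus strand. Amotl2 lies at chr9:102716672-102733418 on the plus strand and Yap1 on the same chromosome at chr9:7931999-8004596 on the minus strand. Axl lies at chr7:25757273-25788705 on the minus strand, Tead1 at chr7:112679318-112906807 on the plus strand and Lats2 at chr14:57689662-57758388 on the minus strand.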

How the data were processed

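Total RNA of 6 LMSC cultures was sequenced, 2 at each of 3 stages. The authors deposited FPKM values for 34745 genes, 1 column per library. The submitters' processing notes name TopHat2 2.0.9 and mm10. The counting tool, the annotation and the gene lengths are not given in the sources used here. The table holds no comparison of stages, and the third library per stage that the paper's methods describe was not analysed here.

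Columns were matched to stages through the sample labels. The members and lists were chosen with earlier results of these data known. The genes named are the 9 and most of their paralogs, the cell type markers and, for each list and comparison, the genes called and, at an unadjusted p under 0.05, up to 2 in each direction by size of difference. For Ctgf, Cyr61 and Yap1, the 3 genes of most similar course were added. Mob1a was named after its values were seen. The 10279 genes whose mean reached 1 FPKM were tested on log2(FPKM + 1), which understates changes of low genes, with limma 3.58.1 in R 4.3.3 (lmFit, eBayes with trend, 1 mean per stage). P-values were two-sided and adjusted by Benjamini-Hochberg over all genes tested, with a threshold of 0.05. Fits were tested on simulated data.

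Deviations from the stage mean correlated between libraries of the same number at 0.238, 0.307 and 0.491, so another fit used the number as a block. This pairing was read from the same expression values that the fit tests, and the labels give the number no meaning. Calls with the block therefore rest on a pairing that is not known to be real. Alternatives were another pseudocount, no filter, quantile normalization, median centring, only the stages compared and each library left out. Depth was estimated from genes with 1 annotated transcript, of which 95.2% to 95.8% gave values within 0.1 of whole fragments; since most lengths are unknown, no count model was used. Of the gene identifiers, 34344 matched GENCODE M21. A gene name was repeated in 57 cases. Copies were searched at 95% identity over at least 200 bases. Python 3.11.15, numpy 2.4.6 and pandas 2.3.3 were used.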

Additional observations from a re-analysis of the deposited data

Results flagged for a closer look

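Nov and Tead2 drew attention because both PM-LMSC libraries lay below, and both M-LMSC libraries above, both A-LMSC libraries. The difference itself, M-LMSC against PM-LMSC on the log2(FPKM + 1) scale, was 0.99 (SE 0.178) for Nov, with an adjusted p of 0.210 in limma and 0.0704 with the replicate block. For Tead2 it was 0.77 (SE 0.13), with an adjusted p of 0.192 in limma and 0.0643 with the block. Neither passed the threshold of 0.05.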

How the results depend on the processing

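The count of the 9 genes called stayed at 0 in all 3 comparisons under every alternative run, including each library left out. With the replicate block the genes called over the whole table rose from 4 to 30 in PM-LMSC against A-LMSC, from 7 to 403 in M-LMSC against A-LMSC and from 3 to 43 in M-LMSC against PM-LMSC. The block changed the calls of Igfbp3, Fosl1, Btg2 and marker genes given in the results and no call among the 9. Without the filter on low values the counts were 1 in PM-LMSC against A-LMSC and 3 in M-LMSC against A-LMSC, and with only the stages compared they were 21 and 1. Leaving out each library gave 1 to 28, 1 to 90 and 2 to 25 genes. In M-LMSC against A-LMSC it was 85 without replicate 1 and 90 without replicate 2 of M-LMSC, and 1 without either PM-LMSC library. The causes were not tested.

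Some differences changed sign. They were not only those near 0, but also larger ones such as Ankrd1 in M-LMSC against PM-LMSC (-0.27) and Yap1 in M-LMSC against A-LMSC (-0.24). With median centring M-LMSC against A-LMSC became -0.0118 for Ctgf and -0.000833 for Lats2, and with quantile normalization 0.0789 for Cyr61. With each library left out, PM-LMSC against A-LMSC ranged from -0.0367 to 0.27 for Cyr61, -0.13 to 0.46 for Ankrd1, -0.45 to 0.13 for Yap1 and -0.24 to 0.40 for Tead1. M-LMSC against A-LMSC ranged from -0.0648 to 0.14 for Ctgf, -0.22 to 0.0866 for Cyr61, -0.33 to 0.13 for Ankrd1, -0.16 to 0.26 for Lats2, -0.86 to 0.37 for Yap1 and -0.45 to 0.19 for Tead1. M-LMSC against PM-LMSC ranged from -0.56 to 0.0288 for Ankrd1, -0.70 to 0.53 for Yap1, -0.0129 to 0.32 for Wwtr1 and -0.47 to 0.0636 for Tead1. Yap1 in M-LMSC against A-LMSC was positive (0.37) only without replicate 2 of M-LMSC. Amotl2 and Axl kept their direction in every comparison and alternative run. The precision is limited by 2 libraries a stage, and the intervals in the results give its size for each gene.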
